A study of Oryza sativa Japonica Group with 6 samples.

Results

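Genes of photosynthesis were followed in developing rice seeds (Oryza sativa Japonica Group) on Affymetrix rice genome arrays. The genes were the antenna genes CAB1R and CAB2R, the plastocyanin gene PETE, the light-regulated gene LIR1, the Rubisco small subunit gene RBCS and the Rubisco activase gene RCA. They were taken by symbol or synonym, and a probe set counted where the array annotation ties it to exactly 1 nuclear gene. Of these 6 genes 5 were measured, among 17905 genes with a probe set of their own, by 12 of the 57194 rice probe sets. These were 4 probe sets for RCA (LOC4351224), 4 for RBCS (LOC4351966), 2 for CAB2R (LOC4324599), 1 for PETE (LOC4339833) and 1 for LIR1 (LOC4326442). CAB1R (LOC4346803) has no probe set in the annotation used here and was not analysed here.

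The additional NH4Cl group held 3 arrays, from plants whose containers each had 400 mg of ammonium chloride (NH4Cl) sprayed onto the soil around heading. The control group held 3 arrays, from plants without that treatment. Plants of both groups grew in an incubator with day and night cycles, were fertilized at planting and once more 37 days after germination, and seeds came from 6 plants. The labels place the additional NH4Cl samples 15 days after flowering and name no day for control. They call the replicates biological without saying which plants each came from, so the spread behind a p-value may in part be technical. The tissue is given as developing seed, while the extraction text speaks of pooled seedlings.

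Light is captured by chlorophyll a/b-binding proteins, and electrons pass between the cytochrome complex and photosystem I on plastocyanin. Rubisco, built of large and small subunits, fixes carbon dioxide and is kept active by Rubisco activase. In a cereal grain the pericarp holds chloroplasts and stays green while the grain fills, whereas the starchy endosperm is filled with amyloplasts. The arrays measured RNA of whole samples, in which fewer green cells and less RNA per green cell cannot be told apart.

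The deposited values ran from 4.96 to 13.51 and were read from that range as log2, a scale the labels do not state. They hardly varied between arrays. Across arrays, rice probe sets had a median SD of 2.25e-06, and 97.4% of them had an SD under 0.001. A difference in this table is therefore no log2 fold change of RNA. It is given below in deposited log2 units and in within-group SDs of the same probe set, a ratio that is free of the probe set's scale. Array medians differed by at most 0.000154.

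For a lower bound on signal, 64 reporter control probe sets were used, which are directed at sequences that rice does not carry. The highest of them stood at a level of 6.07 and their median at 5.34. Of the 12 probe sets 10 lay above the highest reporter on all 6 arrays, and 4 of the 5 genes had at least 1 such probe set. Both probe sets of CAB2R, at levels of 11.37 and 9.64, and that of PETE, at 10.63, exceeded it by 3.56 or more. They stood at or above 99.7%, 98.5% and 99.4% of the rice probe sets. The 4 RCA probe sets lay at 9.65, 9.36, 8.23 and 7.33. RBCS was measured at 7.03, 6.54, 6.24 and 5.48, the last below the highest reporter. LIR1, at 6.03, lay below that reporter (-0.0406 log2 units from it), a level at which probes for absent sequences also read. Levels of different probe sets were not ranked as amounts of RNA.

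**Figure D1:**
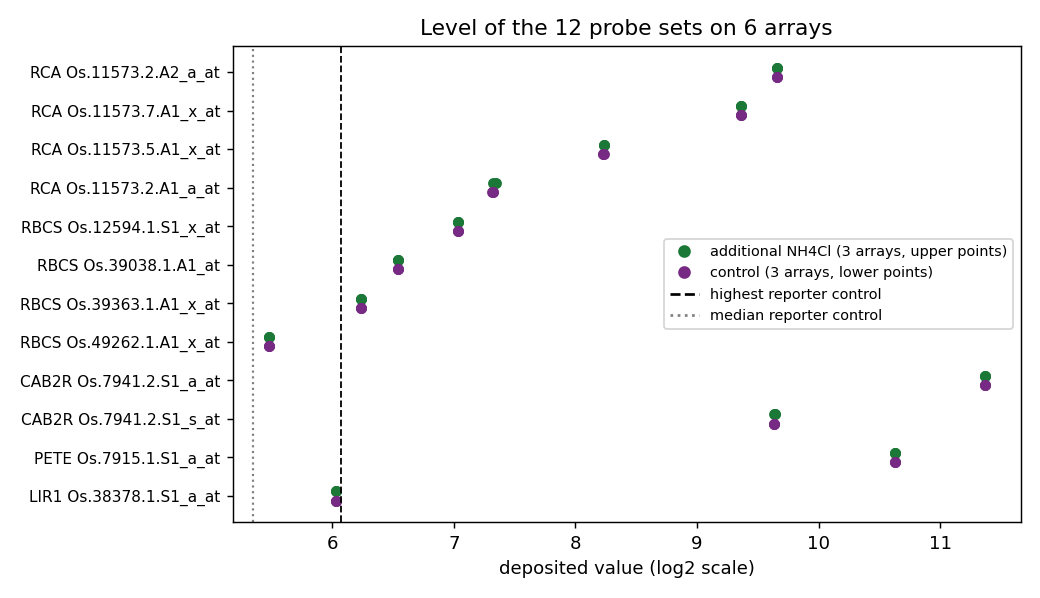
Deposited value on the log2 scale (x axis) of each of the 12 probe sets (rows), with the 3 arrays of additional NH4Cl as upper points, the 3 control arrays as lower points and 2 vertical lines for the highest reporter control (6.07) and the median reporter (5.34). The arrays of a probe set coincide at this scale, and the LIR1 probe set and 1 of the 4 RBCS probe sets lie left of the highest reporter.

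Seeds of both groups carried strong signal of other tissues. Of the fixed starchy endosperm markers (glutelins and the starch synthase GBSS1 among them) 5 of 10 genes were measured and 4 lay above the highest reporter. Of the embryo and aleurone markers 5 of 11 were measured and 5 lay above it. The mean level of the endosperm list ran from 11.47655441 to 11.47655495 with additional NH4Cl and from 11.47655474 to 11.47655481 in control. That of the embryo and aleurone list ran from 10.36370 to 10.36375 with additional NH4Cl and from 10.36371 to 10.36379 in control. The 5 measured photosynthesis genes averaged between 8.94169 and 8.94253 with additional NH4Cl and between 8.94125 and 8.94208 in control. The groups overlapped in all 3 lists.

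Additional NH4Cl was set against control to ask whether nitrogen given at heading altered expression of these genes in the seed. The mean was higher with additional NH4Cl for 11 of the 12 probe sets, by between 7.95e-06 and 0.0137 log2 units, and for all 10 above the highest reporter. After quantile normalization of the arrays 7 of 12 were higher, against 39.7% of rice probe sets, 3 had no difference left, against 22%, and 2, of LIR1 and RBCS, were lower. After centring each array on its median all 12 were higher. Centring adds 0.000123 to every difference by construction, so it could turn no positive difference negative. No member passed adjustment in limma: 0 of 12 had an adjusted p under 0.05, and a test with unequal variances also called 0. Over all rice probe sets limma called 4, or 0.00699%, with 0 of the 4 higher. Quantile normalization called 4079 rice probe sets, 2082 of them higher, and 0 members. Median centring called 10 members, all higher, where 88.3% of rice probe sets were called higher.

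At an unadjusted p under 0.05, limma found 2 of the 12 higher and 0 lower, against a background of 5.09% of rice probe sets higher and 5.96% lower. The groups of 3 arrays did not overlap, with additional NH4Cl above, in 4 of 12, against 8.42% of rice probe sets. A higher mean was found in 50.4% of rice probe sets, and in 48.9% of the 18939 that lay above the highest reporter. Of the 10 members above that reporter 1 had an unadjusted p under 0.05, against 8.12% of those 18939, and 3 had groups that did not overlap, against 11%. The median difference was 1.65 within-group SDs over the 12 probe sets and 0.0101 over all rice probe sets. The genes were chosen with these differences already known, and probe sets of a gene share its RNA, so these counts describe the 5 genes and carry no test of the set.

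RCA is the activase that frees Rubisco of inhibitory sugar phosphates. It was higher on average on all 4 of its probe sets, by 1.60 to 2.45 within-group SDs. Quantile normalization left this direction in place, and median centring could not have reversed it. The RCA probe sets Os.11573.5.A1_x_at and Os.11573.7.A1_x_at can cross-hybridize with transcripts of other genes. On Os.11573.5.A1_x_at the values were 8.23259, 8.23724 and 8.23729 with additional NH4Cl, against 8.22605, 8.23091 and 8.23043 in control. The groups did not overlap, with a gap of 0.00168 between them. The difference was 0.00658 (SE 0.0022, n = 3 per group), with an adjusted p of 0.382 in limma and p = 0.1 in a two-sided exact permutation test, the smallest that 3 arrays against 3 allow.

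The probe set of RCA at the lowest level, Os.11573.2.A1_a_at, had the largest difference of all 12. Its values were 7.32545, 7.33615 and 7.34296 with additional NH4Cl, against 7.31737, 7.32265 and 7.32339 in control. Again every array of additional NH4Cl lay above every control array, while its SD was 0.00883 with additional NH4Cl and 0.00329 in control. The difference of 0.0137 (SE 0.00544; 2.06 within-group SDs) had an adjusted p of 0.455 in limma. Leaving out single arrays moved it between 0.00966 and 0.0184, with the highest value obtained without additional NH4Cl replicate 1.

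On the other RCA probe sets the groups overlapped. Os.11573.2.A2_a_at, the one at the highest level, read 9.65437, 9.65471 and 9.65478 with additional NH4Cl, against 9.65409, 9.65448 and 9.65412 in control. Its difference was 0.000391 (SE 0.000177; 1.80 within-group SDs; limma adjusted p 0.511). Os.11573.7.A1_x_at differed by 0.000599 (SE 0.000306; 1.60 SDs; limma adjusted p 0.568), and by 0.000383 without control replicate 1. The differences of the 4 RCA probe sets thus spanned 35.1-fold in deposited units, against 1.60 to 2.45 in within-group SDs. The order by difference was the reverse of the order by level.

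CAB2R encodes a chlorophyll a/b-binding protein of the light-harvesting antenna. On Os.7941.2.S1_a_at its values were 11.36513, 11.36599 and 11.36614 with additional NH4Cl, against 11.36459, 11.36541 and 11.36505 in control. Additional NH4Cl replicate 1 lay below control replicate 2, so the groups overlapped. The difference was 0.000738 (SE 0.000392; 1.54 within-group SDs; limma adjusted p 0.585), and quantile normalization left none.

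The other CAB2R probe set, Os.7941.2.S1_s_at, can also hybridize with transcripts of related genes. It read 9.63481, 9.63885 and 9.63924 with additional NH4Cl, against 9.63169, 9.63589 and 9.63367 in control. The overlap was the same, with replicate 1 of additional NH4Cl under control replicate 2. Its difference of 0.00389 (SE 0.00187; 1.70 within-group SDs; limma adjusted p 0.538) stayed positive after quantile normalization. Median centring could not have reversed it. The pair of CAB2R probe sets ran in parallel over the 6 arrays (Pearson r = 0.996), although their differences were 5.26-fold apart.

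PETE encodes plastocyanin, the copper protein that carries electrons to photosystem I. Its values were 10.62546, 10.62598 and 10.62550 with additional NH4Cl, against 10.62493, 10.62556 and 10.62507 in control. Control replicate 2 lay above 2 of the 3 arrays of additional NH4Cl. The difference was 0.000457 (SE 0.000254; 1.47 within-group SDs; limma adjusted p 0.606), with none left after quantile normalization. Without additional NH4Cl replicate 2 it was 0.000291.

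RBCS, the nuclear gene for the small subunit of Rubisco, belongs to a multigene family of close copies in plants. Of its 4 probe sets 3 can cross-hybridize, so they are uncertain as to which copy they measure. The probe set at the highest level, Os.12594.1.S1_x_at, read 7.03252, 7.03430 and 7.03530 with additional NH4Cl, against 7.03172, 7.03399 and 7.03227 in control. Its groups overlapped, and the difference was 0.00138 (SE 0.00106; 1.06 within-group SDs; limma adjusted p 0.738). It was 0.00214 without additional NH4Cl replicate 1, 0.000751 without its replicate 3 and 0.000909 without control replicate 1.

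On Os.39363.1.A1_x_at the values of RBCS were 6.23883, 6.23938 and 6.23933 with additional NH4Cl, against 6.23867, 6.23882 and 6.23877 in control. The groups were separated by a gap of 1.56e-05. The difference was 0.000428 (SE 0.000179; 1.95 within-group SDs), with an adjusted p of 0.478 in limma and p = 0.1 in the exact permutation test.

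The single RBCS probe set not marked for cross-hybridization, Os.39038.1.A1_at, differed by 1.10e-05 (SE 1.12e-05; limma adjusted p 0.826) and turned negative after quantile normalization. Its higher mean came from additional NH4Cl replicate 3, at 6.541011, while the other 5 arrays lay between 6.540974 and 6.540984. Without that array the difference was 3.44e-07, and without replicate 2 of additional NH4Cl it was 1.89e-05. The probe set below the highest reporter, Os.49262.1.A1_x_at, stood at -2.07e-08 (limma adjusted p 0.999) and turned positive after median centring. RBCS1, a second small subunit gene of the gene table that is none of the 6, had 1 probe set at a mean of 5.17176 in both groups, below the highest reporter, with a difference of 5.67e-07 (limma adjusted p 0.976).

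LIR1 encodes a light-regulated chloroplast protein, known in Arabidopsis to bind ferredoxin-NADP reductase at the thylakoid. Its values were 6.0309516, 6.0309517 and 6.0309506 with additional NH4Cl, against 6.0309419, 6.0309439 and 6.0309442 in control. The groups were set apart by 6.34e-06, and the within-group SD was 9.98e-07. The difference of 7.95e-06 (SE 8.15e-07) amounted to 7.97 within-group SDs, the largest ratio of the 12 probe sets. It had an unadjusted p of 0.000328 and an adjusted p of 0.121 in limma, with p = 0.1 in the exact permutation test. The difference was -8.10e-05 after quantile normalization and the level lay under the highest reporter, so the direction holds only for the values as deposited. Its sign after median centring tells nothing more, since centring adds 0.000123 to every difference.

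**Figure D2:**
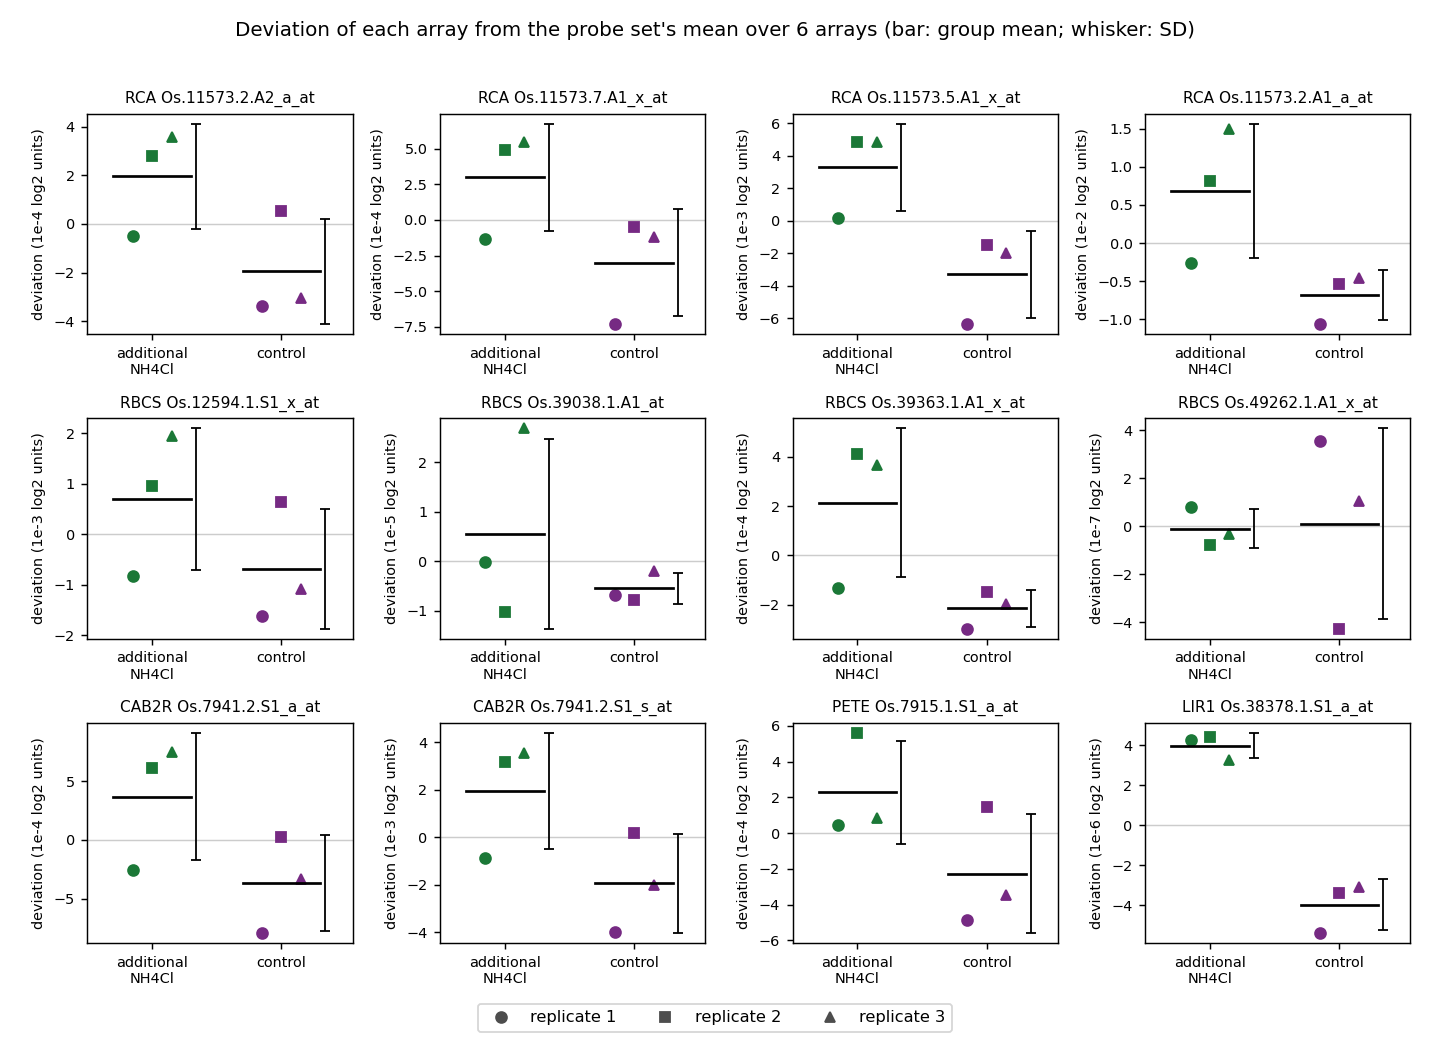
Deviation of each array from the mean of the probe set over 6 arrays (y axis, in powers of 10 of the deposited log2 unit, with a scale of its own in each panel) for 12 probe sets, with additional NH4Cl left, control right, the bar for the group mean and the whisker for its SD (n = 3). Control replicate 1 (circle, right) is the lowest array in 10 of 12 panels, and the groups are apart in 4 panels, of RCA, RBCS and LIR1. After quantile normalization LIR1 and the RBCS probe set Os.39038.1.A1_at are lower with additional NH4Cl.

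**Figure D3:**
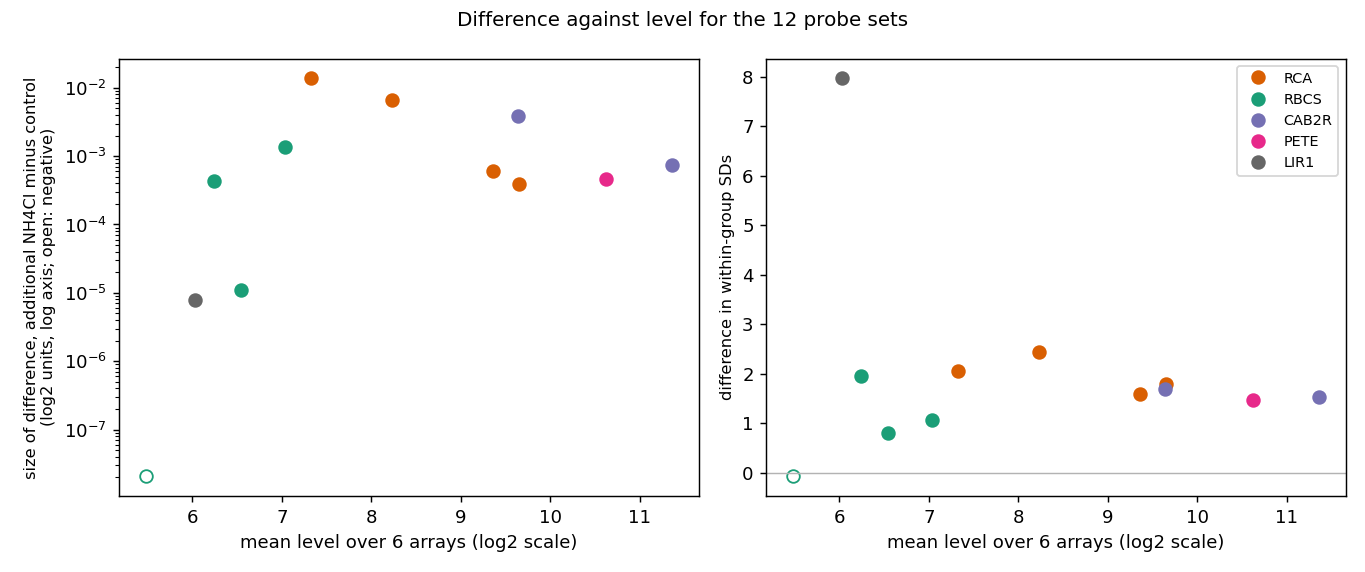
Difference of additional NH4Cl minus control for the 12 probe sets against their mean level (x axis, log2 scale), left in deposited log2 units on a log axis (open circle, negative) and right in within-group SDs. Differences of the probe sets above the highest reporter run from 1.10e-05 to 0.0137 in deposited units but from 0.802 to 2.45 in within-group SDs.

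The arrays stood in nearly one order across the genes. Among the 10 probe sets above the highest reporter, additional NH4Cl replicate 3 was the highest of all arrays in 8 and control replicate 1 the lowest in 9. Over the 18939 rice probe sets above that reporter these arrays were highest in 24.1% and lowest in 12.7%. Replicate 1 of additional NH4Cl was the lowest of its own group in 9 of the 10, against 41.5% of those rice probe sets. The 45 pairs among the 10 probe sets had a median Pearson r of 0.909 over the 6 arrays, from -0.0284 to 0.996. Pairs of 1 gene share its RNA, and all pairs share the 6 arrays and the difference between groups.

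Without additional NH4Cl replicate 1, 8 of the 12 probe sets were higher at an unadjusted p under 0.05 in limma, against 4.62% of rice probe sets in the same fit. Without control replicate 2 there were 4, against 4.56%, and with all arrays 2. Leaving out any other single array left 1 of 12. In those fits the share of rice probe sets was 4.52% without additional NH4Cl replicate 2, 5.3% without its replicate 3, 3.8% without control replicate 1 and 4.48% without control replicate 3. Adjusted p-values stayed above the threshold in each of these 6 fits, and the lowest in any was 0.201, for LIR1.

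Spike-in controls are RNAs added in fixed amounts, and those named bioB, bioC, bioD and cre were used. They also had higher means with additional NH4Cl in 27 of 27 probe sets, by 9.41e-06 to 0.00237 log2 units. These probe sets repeat a few RNAs, so their number is no count of separate RNAs. None of the 27 had groups that did not overlap (0 of 27). Their mean level was 9.14618, 9.14578 and 9.14361 with additional NH4Cl, against 9.14361, 9.14490 and 9.14418 in control. Replicate 1 of additional NH4Cl was highest in 26 of 27 spike-in probe sets and in 0 of the 12 probe sets of photosynthesis genes. Replicate 3 of additional NH4Cl was lowest in 16 of the 27 and in 0 of the 12. Control replicate 1 was lowest in the other 11 of the 27, and it was also lowest in 10 of the 12 probe sets of photosynthesis genes. The part of the spike-in shift in the differences of the photosynthesis genes was not tested.

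Spread depended on level over the whole table. The median within-group SD was 1.06e-06 for rice probe sets at levels of 5 to 6, 1.07e-05 at 6 to 7, 8.49e-05 at 9 to 10 and 2.85e-05 at 11 to 12. Within its own step of level, 1.22% of rice probe sets had a larger SD than the RCA probe set Os.11573.2.A1_a_at. The share was 4.59%, 23.7% and 32.0% for the other RCA probe sets, in order of level from 8.23 to 9.65. For RBCS it was 5.85%, 45.4%, 8.79% and 83.1%, in order of level from 7.03 to 5.48. For the CAB2R probe sets this share was 8.70% and 4.62%, and for PETE it was 18.3%. The LIR1 probe set lay at the other end, with a larger SD in 89.7% of probe sets of its step. Its level of 6.03 is at the lower edge of that step. Its SD of 9.98e-07 was near the median of the step from 5 to 6, and 66.6% of all rice probe sets had a larger one.

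Other genes of photosynthesis and chlorophyll were taken from a list of 84 names, of which 22 genes were measured with 35 probe sets. None passed adjustment in limma (0 of 35, lowest adjusted p 0.16). At an unadjusted p under 0.05 in limma, 6 stood higher and 1 lower, against 5.09% and 5.96% of all rice probe sets. Means were higher for 24 probe sets and lower for 11 as deposited, where 50.4% of rice probe sets were higher. After quantile normalization 13 were higher, against 39.7%, 18 were lower and 4 had no difference left, against 22%. Groups did not overlap in 7 of the 35 higher and 1 lower, against 8.42% and 8.99% of all rice probe sets. Of the 25 above the highest reporter 4 were higher without overlap, against 11%. The median difference of the 35 was 0.908 within-group SDs.

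By role, 6 of 9 probe sets of electron transport were higher, and 5 after quantile normalization. The 6 included all 4 of ADI1, a ferredoxin gene by its synonym, 1 of them lower after quantile normalization, whose probe set at the highest level, Os.12393.2.S1_x_at, differed by 0.00149 (1.39 SDs; limma adjusted p 0.626). PETC, the Rieske protein of the cytochrome complex, stood at 0.000535 (1.56 SDs; limma adjusted p 0.579). Ferredoxin-NADP reductase genes, found under the synonym FNR, were mixed and held the 3 lower probe sets of electron transport. Os.1.1.S1_s_at, of LOC4342399, stood at -2.19e-05 (-1.24 SDs, limma adjusted p 0.675) and was positive after median centring. Os.10696.1.S1_at, of the leaf gene LFNR1, was higher by 0.000213 (1.33 SDs, limma adjusted p 0.648). All 5 probe sets of carbon metabolism were higher, among them GLO4 at 0.000828 (0.699 SDs; limma adjusted p 0.861) and GLO1 at 1.10e-05 (2.67 SDs; limma adjusted p 0.346), both glycolate oxidase genes of photorespiration. After quantile normalization 3 of these 5 were higher, and the GLO1 probe set named was lower.

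Photosystem subunits were higher in 3 of 4 probe sets as deposited and in 1 after quantile normalization. Chosen after its values were seen, PSAH, a subunit of photosystem I, had groups that did not overlap and a difference of 0.00405 (2.82 SDs; limma adjusted p 0.326). Chlorophyll synthesis genes were higher in 3 of 7 probe sets, and in 2 after quantile normalization. PORA, a protochlorophyllide reductase gene named for the lowest adjusted p of the list, lay below the highest reporter with a difference of 2.41e-05 (5.39 SDs; limma adjusted p 0.16). Of the genes for chlorophyll loss 2 of 5 were higher, and 1 after quantile normalization. SGR, which starts the removal of chlorophyll in senescence, stood at -0.00076 on the probe set Os.11666.1.S1_s_at (-1.47 SDs; limma adjusted p 0.606). The SGR difference was negative under all 3 scalings. The regulators GLK1 and GLK2, transcription factors of chloroplast development, were higher on 5 of 5 probe sets as deposited. After quantile normalization 1 was higher, 2 were lower and 2 had no difference. Only 2 of these 5 probe sets, of GLK2, lay above the highest reporter on all 6 arrays.

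**Figure D4:**
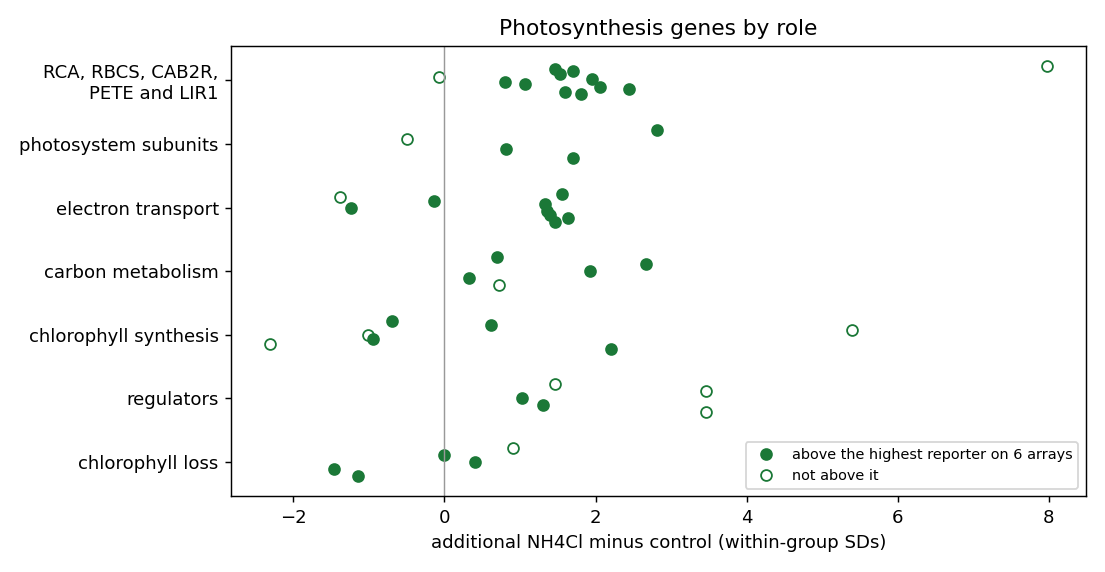
Difference of additional NH4Cl minus control in within-group SDs (x axis) for probe sets of photosynthesis genes by role (rows), filled where the probe set lay above the highest reporter on 6 arrays and open elsewhere. The top row holds the 12 probe sets of RCA, RBCS, CAB2R, PETE and LIR1, of which 11 lie right of 0 as deposited and 7 after quantile normalization.

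Likeness of pattern was measured as Pearson r over the 6 arrays with the probe set of each gene at the highest level. Candidates were genes whose symbol is no locus number, with the photosynthesis genes followed here left out. Some of those left out lay closer than the candidates named below. CAB2R reached 0.979 with RCA and 0.958 with RBCS, and RCA reached 0.98 with CAB2R and 0.869 with LIR1. Among the candidates the nearest to RCA were LPR2 (r = 0.969), GA20OX3 (0.959), a gibberellin 20-oxidase gene, and RPL7A-1 (0.882), a ribosomal protein gene. For CAB2R they were LPR2 (0.976), HCT1 (0.938) and LFNR1 (0.896), a leaf ferredoxin-NADP reductase gene. PETE lay nearest to GA20OX3 (0.916), LFNR1 (0.89) and DTE1 (0.851). RBCS lay nearest to LPR2 (0.942), PRX112 (0.867) and GA20OX3 (0.857), and LIR1 to 60SP0 (0.945), BIP1 (0.86) and NSHB1 (0.782). The mean levels of LPR2 (5.646), DTE1 (5.271), NSHB1 (5.862) and PRX112 (6.068) lay below that of the highest reporter (6.072).

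An r above 0.95 over the 6 arrays was reached by many rice probe sets, though by a small share of the table. Between 128 rice probe sets, for RBCS, and 280, for LIR1, had an r above 0.95, or 0.224% and 0.49% of the table. Of the other 11 probe sets of the photosynthesis genes, 5 exceeded that r with CAB2R, 3 with RCA, 3 with RBCS, and 0 with PETE and LIR1.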

How the data were processed

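Expression was measured on 6 arrays with 1 value per probe set. The authors deposited these values on what was read from their range as a log2 scale; neither labels nor headers state how probes were summarized and normalized. Biotinylated cRNA was hybridized, per the labels' protocols. Any 2 arrays had at most 41 values in common. The genes, lists and rules were chosen with earlier results of these data known.

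Genes were assigned from GEO's platform annotation, which can be old, with symbols from RefSeq (assembly ASM3414082v1). Of 57194 rice probe sets, 22436 had 1 gene. Tests left out 187 control probe sets. Additional NH4Cl minus control was fitted over all rice probe sets with limma 3.58.1 in R 4.3.3 (lmFit, eBayes, no block). P-values were two-sided and adjusted by Benjamini and Hochberg's method, with 0.05 as threshold. Standard errors are unmoderated. On simulated data for this comparison (57194 probe sets), 91 of 100 shifts of 20 within-group SDs and 58 of 100 of 10 were recovered, with 9 false calls. The number of arrays limits the precision.

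Named were the genes of the rule, the 6 listed photosynthesis genes with the highest mean, the regulators as a group, and 3 genes per pattern; RBCS1 was added because it shares a name, and PSAH and PORA after their values were seen. Alternatives were the replicate block, variance moderation, scalings, filters, a test with unequal variances and single arrays left out. Promoter motifs and sequences were not analysed here.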

Additional observations from a re-analysis of the deposited data

How the results depend on the processing

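The 12 probe sets gave 149 differences under the alternatives, of which 131 kept their sign and their side of the threshold, 9 passed it after median centring alone, 3 became 0 and 6 changed sign. The changes of sign were -8.10e-05 for LIR1 and -2.35e-05 for the RBCS probe set Os.39038.1.A1_at after quantile normalization, and 0.000123 for Os.49262.1.A1_x_at after median centring (also 1.40e-08, 1.51e-07 and 2.63e-08 without single arrays), which adds 0.000123 to every difference by construction. The last also ran from -2.39e-07 to 1.51e-07 with single arrays left out. Rice probe sets called numbered 4 as deposited, 2 with the replicate block, 2 with trend and robust moderation, 4079 after quantile normalization, 51354 after median centring, 32 without dim probe sets, 0 with unequal variances (4593 at an unadjusted p under 0.05) and 0 to 1 with an array left out. Members called numbered 10 after median centring and 0 elsewhere. Higher means numbered 7 of 12 after quantile normalization, 6 of 6 without cross-hybridizing probe sets and 11 to 12 with an array left out. The cause of the other shifts was not tested. Same-numbered replicates deviated together with r of -0.0616, 0.0449 and -0.0775, so the numbers were not taken as pairs. With the replicate block 7 of 12 members were higher at an unadjusted p under 0.05, where 4.41% of rice probe sets were, against 2 members and 5.09% without it. Means were higher for 11 members with the block. The bound from the reporters left 12 probe sets above it when their median was used, and 4 genes when probe sets were averaged per gene.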
